A study of Arabidopsis thaliana with 6 samples.

Results

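Aminoacyl-tRNA synthetases attach each amino acid to its tRNA and so supply the ribosome with charged tRNAs. They fall into class I and class II by the fold of the catalytic domain. A plant cell makes protein in the cytosol, the plastids and the mitochondria, and all of its synthetases are encoded in the nucleus. Many of the organellar enzymes are imported into plastids and mitochondria alike, and a few cytosolic ones, such as alanyl- and threonyl-tRNA synthetase, also serve the mitochondria. Loss of an organellar synthetase commonly aborts the ovule or the embryo in Arabidopsis, which is where symbols such as OVA and EMB come from.

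The transcripts of 45 such genes were looked for in arrays of microdissected root meristems of Arabidopsis thaliana, taken 7 days after sowing. Wild type (WT, 3 arrays) was compared with 35S:miR396 (3 arrays), a line in which the constitutive viral 35S promoter drives the microRNA miR396. All plants were untreated and grew upright on agar with sucrose under long days. The labels call the arrays of a group biological replicates without saying how the plants were kept apart or whether the line was 1 transformant, so p-values cover the spread between these arrays, which may be partly technical.

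The genes were chosen by name. The annotation used here gives a probe set, the set of short probes read as 1 value, to 20 of the 45 genes. These are 17 of 25 cytosolic enzymes, 2 of 18 organellar enzymes and AT3G56300, a cysteinyl-tRNA synthetase gene whose compartment was treated as unsettled. Across the whole array 14314 genes have a listed probe set. The 20 genes lie on 19 probe sets, because AT2G33840 and AT1G28350, both cytosolic tyrosyl-tRNA synthetase genes, share 1 and cannot be told apart. The other 25 genes, which include all those for asparagine, glutamine, glycine, lysine and valine, were not analysed here. The comparison of cytosolic with organellar enzymes therefore rests on 2 organellar genes.

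Values are log2 GCRMA values, an expression measure per probe set after background correction and normalization between arrays. Probe sets at or above 4 (log2) in 3 or more of the 6 arrays were tested. All 18 tested synthetase probe sets were above 4 in all 6 arrays, between 6.11 and 11.16. The probe set left out was that of AT3G56300, which read 3.43, 3.07 and 3.08 in wild type and 2.99, 3.12 and 3.12 in 35S:miR396. The groups overlapped there, and these levels were too close to the lowest value of the arrays (2.25) to be compared. Levels of different probe sets are not compared with each other, since each has its own probes.

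Of all 11364 probe sets tested by limma with Benjamini-Hochberg adjustment, 25.0% had an adjusted p under 0.05, 12.7% higher and 12.3% lower in 35S:miR396. Genotypes parted along a first principal component with 70.4% of the variance, where replicate 2 of 35S:miR396 lay nearest to wild type. None of the 7 GRF genes that miR396 targets had a listed probe set, so the genotype rests on the labels. Of 8 root meristem markers only BBM was listed. It read 5.56, 5.67 and 5.52 in wild type and 6.97, 7.37 and 6.92 in 35S:miR396, and rose by 1.5 ± 0.14 (log2, SE; adjusted p = 0.00122 by limma). The part of this difference in the synthetase values was not tested. The root hair markers EXPA7 and EXPA18 lay near the lowest value, between 2.25 and 2.38, and 4 markers of endodermis and xylem, 2 of root cap and 3 of green tissue were not analysed here. In these tissue samples, a smaller number of cells of a type and less RNA per cell cannot be told apart.

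Most cytosolic synthetase transcripts differed little between the genotypes, and 4 of them rose. Of the 16 tested cytosolic probe sets, those of alanyl-, aspartyl-, methionyl- and seryl-tRNA synthetase were higher in 35S:miR396, none was lower and 12 did not pass the test. The share that passed, 25.0%, equals the share over all tested probe sets. At an unadjusted p under 0.05, 4 were higher and 1 was lower, which is 31.2% beside 40.4% over all tested probe sets. The median log2 fold change of the 16 was -0.05, beside -0.01 over all tested probe sets, and the median absolute log2 fold change was 0.14, beside 0.21. Their median standard error (SE) was 0.073, beside 0.113. At 10 of the 16 the genotypes did not overlap, where the background is 45.7%. With array weights the count was 4 higher and 4 lower, beside a background of 41.8%. With no filter it was 1 of 16, beside a background of 4.14%, and with the filter raised to 6 it was 4, beside 30.0%. It was 1 without wild-type replicate 1, 2 or 3, where the background was 11.4%, 9.26% and 13.2%. It was 2 without replicate 1 or 3 of 35S:miR396, where the background was 14.1% and 12.0%. It was 5, beside 33.6%, when replicate 2 of 35S:miR396 was left out.

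**Figure D1:**
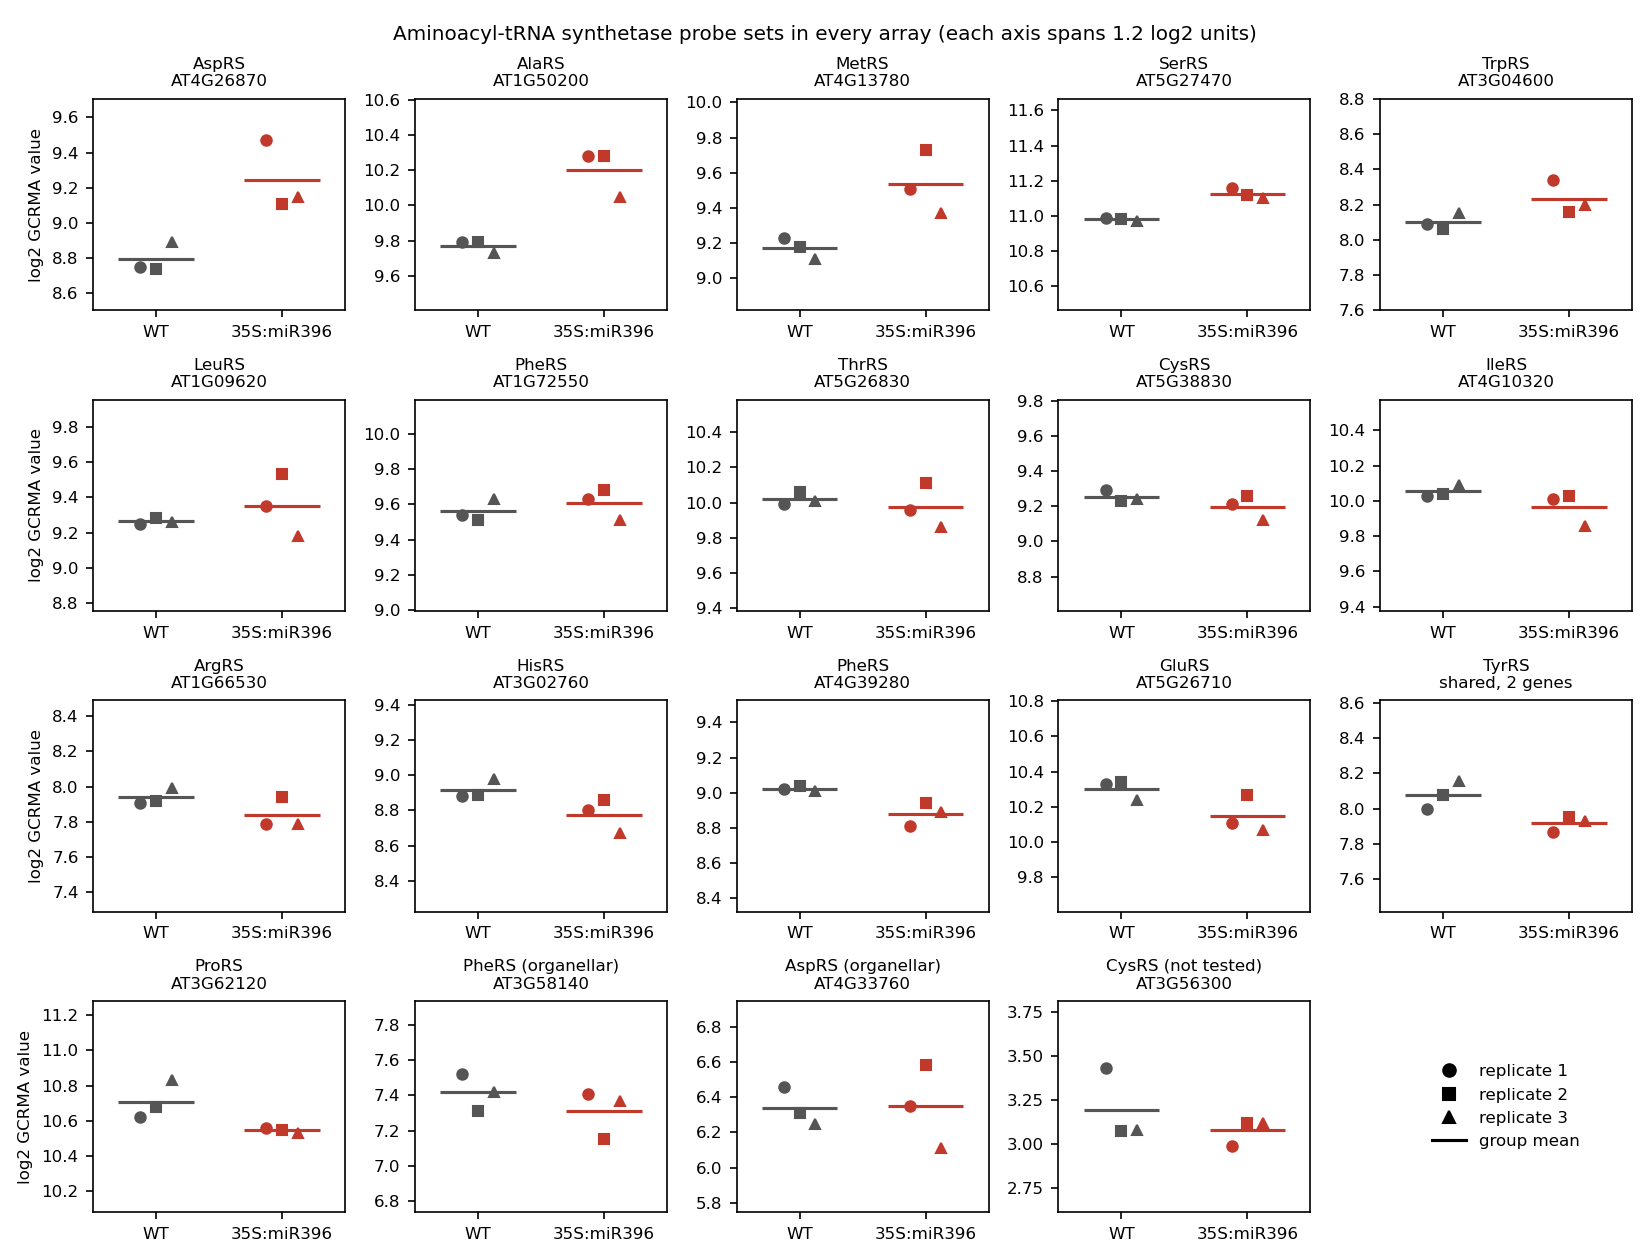
Log2 GCRMA values (vertical axes) of the 19 synthetase probe sets in the 3 WT and the 3 35S:miR396 arrays, with the replicate shown by the symbol and the group mean by a line. Panels run from the highest to the lowest log2 fold change among the 16 cytosolic probe sets, followed by the 2 organellar ones and the untested AT3G56300; the first 4 panels show every 35S:miR396 array above every WT array.

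Alanyl-tRNA synthetase (AT1G50200, ALATS), a class II enzyme shared between cytosol and mitochondria, read 9.79, 9.79 and 9.73 in wild type and 10.28, 10.28 and 10.05 in 35S:miR396. All 3 arrays of 35S:miR396 were above all 3 of wild type, and replicate 3 was the lowest of its group. The level rose 1.35-fold (log2 fold change 0.43 ± 0.08, SE; adjusted p = 0.0104 by limma). The call held in 12 of 13 alternative settings, with each array left out in turn among them, and was lost with no filter (adjusted p = 0.0563).

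The cytosolic aspartyl-tRNA synthetase AT4G26870 read 8.75, 8.74 and 8.89 in wild type and 9.47, 9.11 and 9.15 in 35S:miR396. The groups were apart, and replicate 1 of 35S:miR396 stood above the other 2 arrays of its group. The level rose 1.36-fold (0.45 ± 0.11, SE; adjusted p = 0.0267 by limma). Leaving out wild-type replicate 1 (0.42), 2 (0.42) or 3 (0.50), or replicate 3 of 35S:miR396 (0.49), ended the call, as did no filter. Over all alternatives its adjusted p ranged from 0.00564 to 0.114. The second cytosolic gene for this amino acid, AT4G31180, known as IBI1 and as a receptor of the priming agent BABA, was not analysed here.

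Methionyl-tRNA synthetase (AT4G13780), a class I enzyme that charges both initiator and elongator tRNAs, read 9.23, 9.18 and 9.11 in wild type and 9.51, 9.73 and 9.37 in 35S:miR396. Replicate 2 of 35S:miR396 was highest and replicate 3 lowest, still above all 3 wild-type arrays. The level rose 1.29-fold (0.37 ± 0.10, SE; adjusted p = 0.034 by limma). Leaving out wild-type replicate 1 (0.39), 2 (0.37) or 3 (0.33), or replicate 1 of 35S:miR396 (0.38), ended the call, as did no filter and no trend. Over all alternatives its adjusted p ranged from 0.0277 to 0.129.

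Seryl-tRNA synthetase (AT5G27470), a class II enzyme, had the smallest change of the 4 and the tightest replicates. It read 10.99, 10.98 and 10.97 in wild type and 11.16, 11.12 and 11.10 in 35S:miR396, with no overlap. The level rose 1.11-fold (0.15 ± 0.04, SE; adjusted p = 0.0372 by limma). Leaving out any wild-type array (0.15 each time), or replicate 1 (0.13) or 3 (0.16) of 35S:miR396, ended the call. So did a variance prior with no trend (adjusted p = 0.138, the highest of its alternatives) and a further quantile normalization (0.0504).

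The 4 enzymes that rose comprise 3 of the 8 tested class II probe sets (37.5%) and 1 of the 8 tested class I probe sets (12.5%). The share over all tested probe sets is 25.0%, and whether the classes differ was not tested. The median log2 fold change was 0.00 in class II and -0.07 in class I. Threonyl-tRNA synthetase (AT5G26830), shared with the mitochondria like the alanyl enzyme, read 9.99, 10.06 and 10.01 in wild type and 9.96, 10.11 and 9.86 in 35S:miR396. Its groups overlapped, at -0.04 ± 0.07 (SE; adjusted p = 0.685 by limma), with a 95% interval from -0.21 to 0.13.

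Of the 12 cytosolic probe sets that did not pass, 9 had a negative and 3 a positive log2 fold change, from -0.16 to 0.13. The 4 that passed were all positive, so over all 16 the split was 9 negative and 7 positive. Over all tested probe sets it was 5919 negative and 5445 positive. The 95% intervals of the 12 all lay between -0.33 and 0.31 on the log2 scale, so a change of more than 1.26-fold lay outside each of them. Prolyl-tRNA synthetase (AT3G62120) came nearest to the threshold. It read 10.62, 10.68 and 10.83 in wild type and 10.56, 10.55 and 10.53 in 35S:miR396. All 3 arrays of 35S:miR396 were below those of wild type, at -0.16 ± 0.06 (SE; adjusted p = 0.0891 by limma).

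Glutamyl-tRNA synthetase (AT5G26710), a class I enzyme, read 10.33, 10.34 and 10.24 in wild type and 10.11, 10.27 and 10.07 in 35S:miR396. Replicate 2 of 35S:miR396 lay within the wild-type range and the other 2 below it. The log2 fold change was -0.15 ± 0.07 (SE; adjusted p = 0.133 by limma). Without replicate 2 of 35S:miR396 it was -0.21 and passed the test (adjusted p = 0.0362), the lowest over the alternatives being 0.0136 and the highest 0.32.

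Histidyl-tRNA synthetase (AT3G02760) read 8.88, 8.89 and 8.98 in wild type and 8.80, 8.86 and 8.67 in 35S:miR396. The groups did not overlap, by a gap that is small beside the spread within 35S:miR396 (-0.14 ± 0.07, SE; adjusted p = 0.206 by limma). The probe set shared by the tyrosyl-tRNA synthetase genes AT2G33840 and AT1G28350 read 8.00, 8.08 and 8.16 in wild type and 7.87, 7.95 and 7.93 in 35S:miR396. These groups did not overlap either, at -0.16 ± 0.07 (SE; adjusted p = 0.149 by limma), and the value cannot be given to either gene. Glutamyl-, histidyl- and prolyl-tRNA synthetase and the phenylalanyl-tRNA synthetase gene AT4G39280 are the 4 that were lower with array weights.

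Cytosolic phenylalanyl-tRNA synthetase is built from alpha and beta subunits, and both genes were measured. The alpha subunit gene AT4G39280 read 9.02, 9.04 and 9.01 in wild type and 8.81, 8.94 and 8.89 in 35S:miR396. All 3 arrays of 35S:miR396 were below those of wild type (-0.14 ± 0.06, SE; adjusted p = 0.13 by limma). The beta subunit gene AT1G72550 read 9.54, 9.51 and 9.63 in wild type and 9.63, 9.68 and 9.51 in 35S:miR396. These groups overlapped, at 0.05 ± 0.07 (SE; adjusted p = 0.625 by limma). Within each array the beta value minus the alpha value was 0.52, 0.47 and 0.61 in wild type and 0.82, 0.74 and 0.62 in 35S:miR396. The lowest 35S:miR396 array stood just above the highest wild-type array, and an exact two-sided permutation test gave p = 0.1, the smallest that 3 arrays against 3 allow. This pair was chosen after its values were seen.

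The remaining cytosolic enzymes did not pass either. Tryptophanyl-tRNA synthetase (AT3G04600) read 8.09, 8.06 and 8.15 in wild type and 8.34, 8.16 and 8.20 in 35S:miR396, which did not overlap by a narrow gap (0.13 ± 0.08, SE; adjusted p = 0.23 by limma). Leucyl-tRNA synthetase (AT1G09620) was tight in wild type, at 9.25, 9.28 and 9.26, and spread on either side of it in 35S:miR396, at 9.35, 9.53 and 9.18. Its log2 fold change was 0.09 ± 0.09 (SE; adjusted p = 0.509 by limma), and -0.0013 without replicate 2 of 35S:miR396. Isoleucyl-tRNA synthetase (AT4G10320) read 10.03, 10.04 and 10.09 in wild type and 10.01, 10.03 and 9.86 in 35S:miR396, where replicates 1 and 2 lay just under the lowest wild-type array and replicate 3 well below it (-0.09 ± 0.06, SE). Arginyl-tRNA synthetase (AT1G66530) ranged from 7.91 to 7.99 in wild type and from 7.79 to 7.94 in 35S:miR396, where replicate 2 lay within the wild-type range. Cysteinyl-tRNA synthetase (AT5G38830) ranged from 9.23 to 9.29 in wild type and from 9.12 to 9.26 in 35S:miR396, and the groups overlapped. The adjusted p of these last 3 was 0.324, 0.366 and 0.519 by limma.

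**Figure D2:**
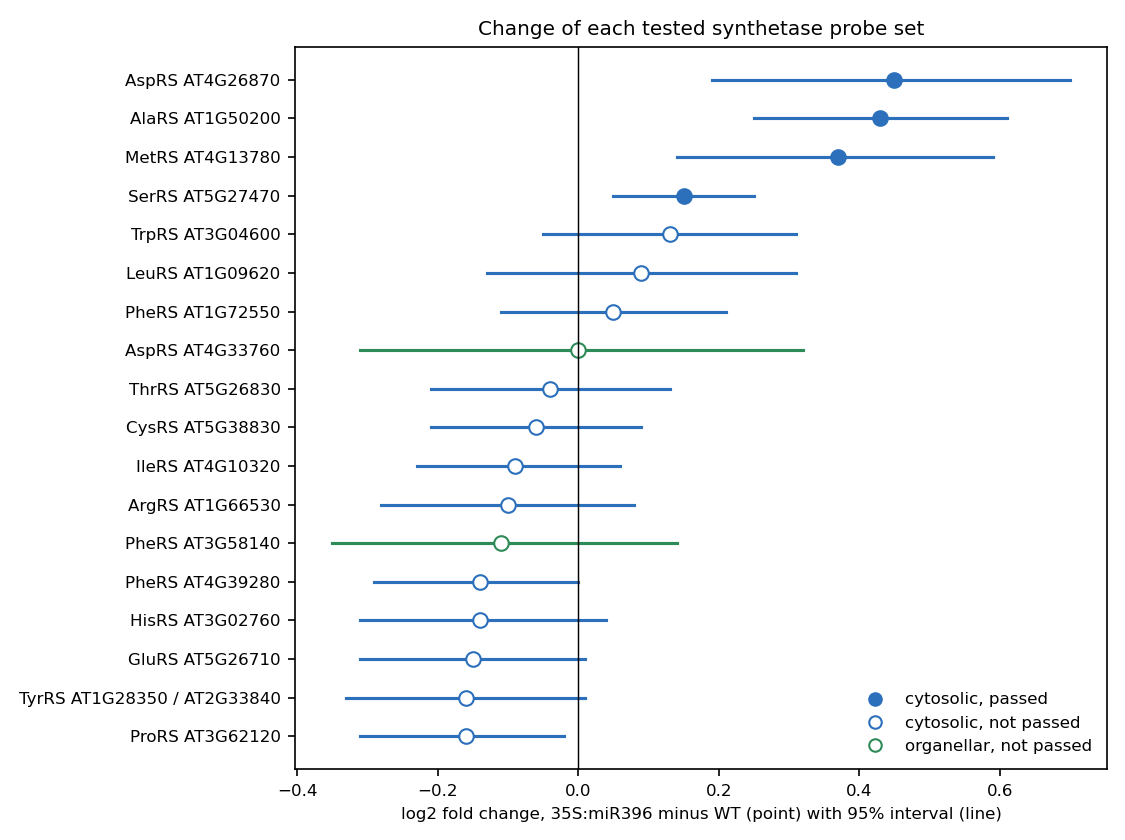
Log2 fold change (35S:miR396 minus WT, horizontal axis) of the 18 tested synthetase probe sets with limma's 95% interval as a line; filled points passed the test, and green marks the 2 organellar genes. The 4 filled points lie at 0.15 to 0.45, and the other 14 lie between -0.16 and 0.13.

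Replicates of 35S:miR396 differed from each other in a way that many cytosolic synthetases shared. Replicate 3 was the lowest of the 3 arrays of 35S:miR396 at 12 of the 16 cytosolic probe sets (75.0%) and the highest at none. Over all tested probe sets it was the lowest at 30.6% and the highest at 23.5%. Replicate 2 was the highest at 11 of the 16 (68.8%), beside 37.8% over all tested probe sets. The median distance from the wild-type mean over the 16 was -0.046, 0.035 and -0.134 in replicates 1, 2 and 3 of 35S:miR396, and -0.016, -0.005 and 0.017 in wild type. Over all tested probe sets the same median was -0.006, -0.015 and -0.025 in 35S:miR396. Without replicate 3 the median log2 fold change of the 16 was -0.00234, and without replicate 2 it was -0.10. These probe sets come from the same 3 arrays and are not independent, and the part of the arrays' RNA or handling in this pattern was not tested.

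**Figure D3:**
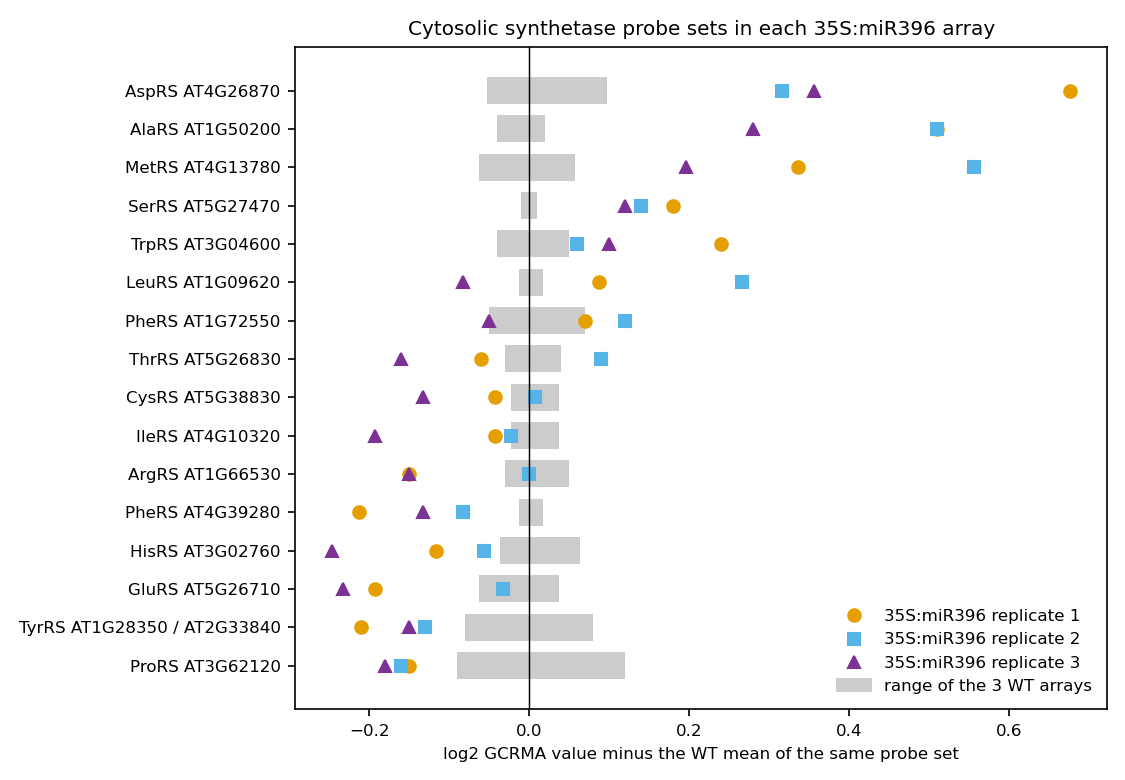
Log2 GCRMA value minus the WT mean of the same probe set (horizontal axis) for the 16 cytosolic probe sets in each of the 3 35S:miR396 arrays; the grey bars span the 3 WT arrays. Replicate 3 (triangles) is the lowest of the 3 at 12 of the 16 probe sets, and all 3 symbols lie to the right of the grey bar at the 4 probe sets that passed the test.

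Of the organellar enzymes, neither tested gene passed limma's test, where the background is 25.0%. At an unadjusted p under 0.05 the count was also 0 of 2, where the background is 40.4%. The organellar phenylalanyl-tRNA synthetase AT3G58140, a class II enzyme of 1 subunit unlike its cytosolic counterpart, read 7.52, 7.31 and 7.42 in wild type and 7.41, 7.15 and 7.37 in 35S:miR396. The groups overlapped, at -0.11 ± 0.10 (SE; adjusted p = 0.466 by limma), with a 95% interval from -0.35 to 0.14. The organellar aspartyl-tRNA synthetase AT4G33760 read 6.46, 6.31 and 6.25 in wild type and 6.35, 6.58 and 6.11 in 35S:miR396. Both the highest and the lowest of its 6 values were in 35S:miR396, with a log2 fold change of 0.00 ± 0.13 (SE; adjusted p = 0.984 by limma) and a 95% interval from -0.31 to 0.32. For these 2 genes a change of more than 1.27-fold lay outside the intervals, and smaller changes lay within them.

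Aspartate and phenylalanine were the 2 amino acids with a tested gene of each compartment. The difference between the log2 values of the cytosolic and the organellar gene within an array was followed across genotypes; its size depends on the probes, and only its change is compared. For aspartate (AT4G26870 minus AT4G33760) it was 2.29, 2.42 and 2.65 in wild type and 3.12, 2.53 and 3.04 in 35S:miR396. Replicate 2 of 35S:miR396 fell inside the wild-type range, and the mean change of 0.44 did not pass an exact two-sided permutation test (p = 0.2; adjusted over the 2 pairs, 0.4). For phenylalanine (AT1G72550 minus AT3G58140) it was 2.02, 2.20 and 2.21 in wild type and 2.22, 2.53 and 2.14 in 35S:miR396. These groups overlapped too, with a mean change of 0.15 (exact permutation p = 0.4, adjusted 0.4). Of the 2 cytosolic phenylalanine genes, the beta subunit gene AT1G72550 was used, as the one with the higher mean over the 6 arrays. The alpha subunit gene AT4G39280 had a log2 fold change of -0.14, beside 0.05 for beta, so the change depends on this choice. With 3 arrays a group the test cannot go below 0.1, so it cannot decide whether the compartments differ.

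The genes that work with the synthetases were taken from 5 lists, covering tRNA maturation, the organellar amidotransferase and formyltransferase, sensing and editing of aminoacyl-tRNA, and the elongation and initiation factors. Of 19 tested probe sets on these lists, 1 rose, 4 fell and 14 did not pass. The share that passed, 26.3%, is near the 25.0% of all tested probe sets, so the count says nothing particular about these lists. Mitochondrial EF-Tu (AT4G02930), which carries charged tRNAs to the organelle's ribosome, read 10.71, 10.71 and 10.74 in wild type and 10.50, 10.51 and 10.53 in 35S:miR396. It fell by 0.21 on the log2 scale (SE 0.04; adjusted p = 0.0165 by limma), with a gap between the groups that is wide beside their spread. Its partner mitochondrial EF-Ts (AT4G11120), which recharges EF-Tu with GTP, read 9.23, 9.13 and 9.20 in wild type and 8.86, 8.91 and 8.93 in 35S:miR396, and fell by 0.29 (SE 0.06; adjusted p = 0.0179 by limma). Leaving out wild-type replicate 1 (-0.21), 2 (-0.21) or 3 (-0.20) ended the call of EF-Tu, as did no trend (adjusted p = 0.0617). Leaving out wild-type replicate 1 (-0.26), 2 (-0.31) or 3 (-0.28), or replicate 3 of 35S:miR396 (-0.30), ended that of EF-Ts. The other 4 tested probe sets of organellar translation factors did not pass, and the median over all 6 was -0.07.

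GatC (AT4G32915) is a subunit of the amidotransferase that makes Gln-tRNA from Glu-tRNA in plastids and mitochondria, where it takes the place of a glutaminyl-tRNA synthetase. It read 6.71, 6.90 and 6.85 in wild type and 6.55, 6.42 and 6.52 in 35S:miR396. The groups did not overlap, and it fell by 0.33 on the log2 scale (SE 0.09; adjusted p = 0.0388 by limma). Leaving out any of the 6 arrays ended its call, with values from -0.38 (no wild-type replicate 1) to -0.29 (no wild-type replicate 2), as did no filter (adjusted p = 0.0726). GatA (AT3G25660), the catalytic subunit, overlapped between groups at -0.12 ± 0.10 (SE; adjusted p = 0.413 by limma).

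TRZ1 (AT1G74700), a tRNase Z that cuts the 3' trailer from precursor tRNAs, read 5.14, 5.04 and 5.14 in wild type and 4.65, 4.81 and 4.59 in 35S:miR396. It fell by 0.43 on the log2 scale, with no overlap (SE 0.11; adjusted p = 0.0287 by limma). Leaving out wild-type replicate 1 (-0.41), 2 (-0.46) or 3 (-0.41), or replicate 1 (-0.41) or 3 (-0.38) of 35S:miR396, ended the call, as did no filter (adjusted p = 0.0684). The related TRZ3 and TRZ4 did not pass, at -0.15 ± 0.12 and 0.09 ± 0.10 (SE), nor did the other 2 tested genes of this list.

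Among cytosolic elongation factors, the eEF1B alpha subunit AT5G19510, which recharges eEF1A, read 12.60, 12.52 and 12.61 in wild type and 12.77, 12.67 and 12.82 in 35S:miR396. The groups were apart, and it rose by 0.18 ± 0.05 (log2, SE; adjusted p = 0.0344 by limma). Leaving out wild-type replicate 1 (0.19), 2 (0.15) or 3 (0.20), or replicate 1 (0.17) or 3 (0.15) of 35S:miR396, ended the call. So did no filter (adjusted p = 0.138), no trend (0.128) and a further quantile normalization (0.0875). The other tested eEF1B alpha gene, AT5G12110, read 4.83, 4.85 and 5.24 in wild type and 4.78, 4.59 and 4.83 in 35S:miR396. Its log2 fold change had the opposite sign, -0.24 ± 0.15 (SE), and did not pass (adjusted p = 0.256 by limma). AT5G12110 lies near the filter of 4, so its sign does not show whether the rise is confined to AT5G19510. The probe set shared by the eEF1B gamma genes AT1G09640 and AT1G57720 had a positive log2 fold change, 0.11 ± 0.05 (SE). Its groups overlapped, and it did not pass (adjusted p = 0.146 by limma). The probe set that 4 eEF1A genes share stood at 0.03 ± 0.04 (SE; adjusted p = 0.577 by limma), near the top of the arrays' range at 14.11 to 14.28. The 2 tested genes of sensing and editing, an eIF2 alpha gene (AT2G40290, the substrate of the kinase GCN2 that senses uncharged tRNA) and GEK1, a deacylase of mischarged D-aminoacyl-tRNA, did not pass, at -0.02 ± 0.07 and -0.11 ± 0.10 (SE).

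**Figure D4:**
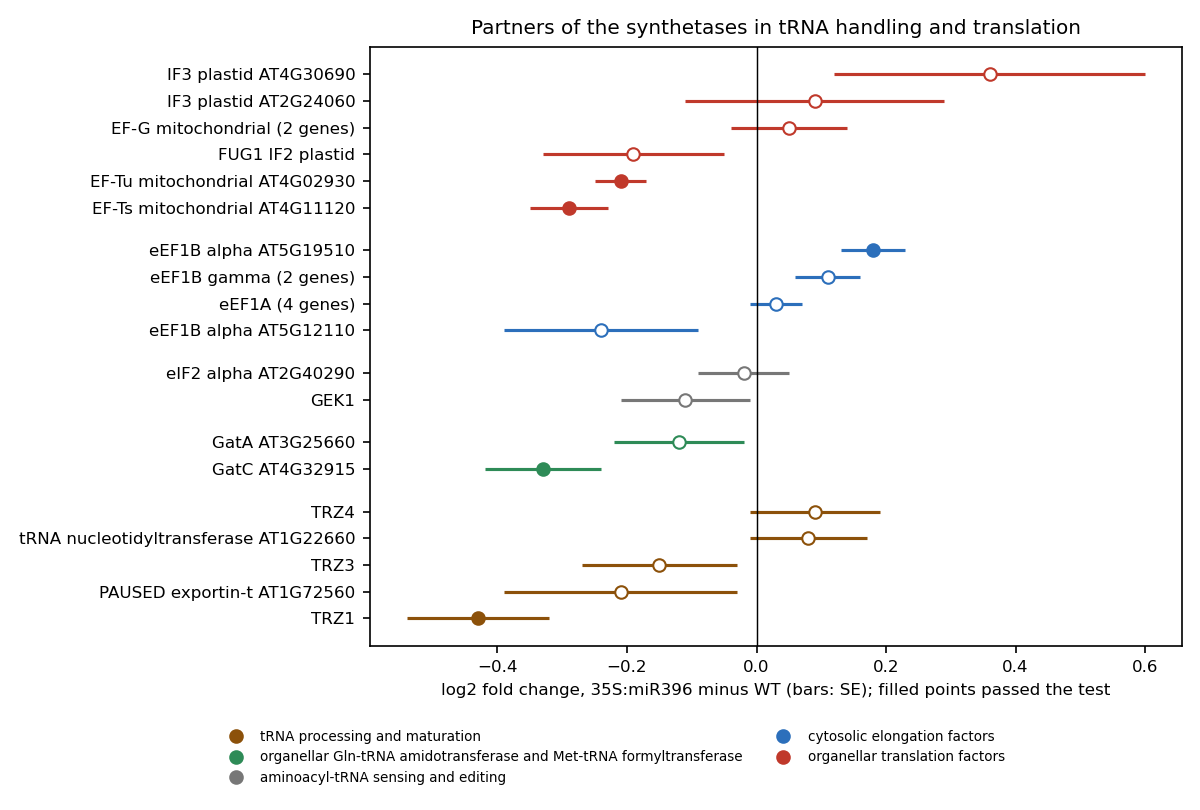
Log2 fold change (35S:miR396 minus WT, horizontal axis, bars SE) of the 19 tested probe sets of the 5 partner lists, coloured by list; filled points passed the test. The 4 filled points left of 0 are TRZ1, GatC, mitochondrial EF-Ts and mitochondrial EF-Tu, from -0.43 to -0.21. The 1 right of 0 is the eEF1B alpha gene AT5G19510 at 0.18.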

How the data were processed

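The deposited values are GCRMA estimates on a log2 scale. The tool is named in the submitters' processing notes, and its version is not given in the sources used here. GCRMA corrects background by probe sequence and normalizes between arrays, which pulls dim probe sets to a floor and hides changes in total RNA. That the scale is log2 was read from the values. Sample titles gave the groups.

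Of 22810 probe sets in all, 64 controls were left out. The platform annotation gave 1 gene to 13513, several to 503 and did not list 8794. Genes were matched to loci of TAIR10.1. No member had more than 1 probe set. R 4.3.3 and limma 3.58.1 (lmFit, eBayes with a mean-dependent variance prior, two-sided, no replicate block) were fitted to all 11364 tested probe sets, and the fit was tested on simulated data. Errors are limma's SE unless given otherwise.

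Members, compartments and lists were chosen with earlier results of these data known. Compartments come from general knowledge of the enzymes, and AT4G26300 and AT3G56300 were put in neither. Every listed member is named; from other lists, the called genes and their nearest relatives. Alternatives covered filters, trend, array weights, replicate block, normalization and leaving out each array. The number of arrays limits precision.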

Additional observations from a re-analysis of the deposited data

How the results depend on the processing

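In all, 941 probe sets were called with no filter and 4749 with array weights, beside 2838 as reported, and between 1052 and 3813 with 1 array left out. Of the 16 tested cytosolic probe sets, 1 was called with no filter (background 4.14%), 2 with no trend (22.4%) and 8 with array weights (41.8%). The count was 4 as reported (25.0%), and 1 to 5 with 1 array left out. Fewer arrays, or more probe sets to adjust over, enter some of these fits. The cause of the changed counts was not tested for any setting. The cytosolic median was -0.11 with array weights. No organellar gene was called in any of these settings. With the replicate block 3 cytosolic genes were called, beside a background of 25.0%. Seryl-tRNA synthetase was lost (adjusted p = 0.0637 by limma), and no other member's call changed. Of the partner genes, TRZ1 and GatC were lost (0.0551 and 0.0688). The replicate numbers are not known to pair the arrays: same-numbered arrays correlated at 0.4, -0.0918 and 0.139 in their deviations from the group means. No member has a second probe set to try. Neither gene of unsettled compartment has a tested probe set, so placing them could change no count and checks nothing. Without the shared tyrosyl-tRNA synthetase probe set (chosen after seeing the data), 4 cytosolic genes were called. That probe set had not passed, so leaving it out of the same fit could not change the count and checks nothing. Sign changes arose only among members that did not pass. They were leucyl-tRNA synthetase AT1G09620 with array weights (-0.02) and without replicate 2 of 35S:miR396 (-0.0013), its highest value with 1 array left out being 0.18; threonyl-tRNA synthetase AT5G26830 without replicate 3 of 35S:miR396 (0.01); and the organellar aspartyl-tRNA synthetase AT4G33760 with array weights (-0.14), a further quantile normalization (-0.01), median centring (-0.00314) and without wild-type replicate 2 (-0.00915) or 3 (-0.04) or replicate 2 of 35S:miR396 (-0.11), its highest with 1 array left out being 0.12.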
